A study of Mus musculus with 4 samples.

Results

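The genes described here encode the proteins of the cytosolic ribosome. They were taken as every array feature whose mouse symbol is Rpl or Rps followed by a digit, or Rplp0 to Rplp2, without the Rps6k kinases and without pseudogenes. The rule gave 83 genes of 33269 features on the array, measured by 119 probes, and the brightest probe stood for each gene. By the letters of their symbols alone, 51 of the 83 were counted with the large subunit (the stalk proteins and paralogs included) and 31 with the small subunit. The remaining gene, Rps19bp1, fits the letters of the rule but encodes a protein that binds Rps19 and is not part of the ribosome. All 83 were well above background on every array in both tissues, so none was lost to the filter on dim probes.

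RNA came from brains of male C57BL/6J mice aged 9 weeks, 6 h after permanent middle cerebral artery occlusion (PMCAO) made with an intraluminal filament on the right side. Every animal whose tissue is used here had 1 µl of saline injected into the ventricles, so saline is common to all groups. The 4 groups were ischemic core, healthy core, ischemic penumbra and healthy penumbra. Each of 4 two-colour arrays on 1 slide carried ischemic and healthy tissue of 1 region: core replicates 1 and 2, and penumbra replicates 3 and 4. The dyes were swapped within each region: core replicate 1 and penumbra replicate 3 had the ischemic RNA labelled with Cy5, and the other 2 arrays had it labelled with Cy3. The labels mention 3 mice per group but not whether they were pooled, and leave unstated if the healthy pieces were cut from the opposite hemisphere or from different animals. Each swapped pair was therefore counted as 1 replicate, and the spread between its arrays is not a spread between animals.

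Median spot signals lay between 192 and 225.5 in Cy3 and between 284 and 310 in Cy5, against local backgrounds of 64 to 66 and 70 to 71, and 0 spots were saturated. The tissue pieces differed in composition. Choroid plexus markers were lower in core than in penumbra pieces for 7 of 7 measured genes, with a median log2 difference of -4.04 in ischemic and -3.36 in healthy tissue. Striatal markers had a median of -1.47 in ischemic and -1.85 in healthy pieces. Neutrophil markers were higher in ischemic than in healthy tissue for 5 of 5 genes, led by S100a9 with a log2 ratio of 2.49 in core and 1.88 in penumbra. In penumbra, choroid plexus markers were higher in ischemic tissue in 7 of 7 genes (median 0.63) and meningeal fibroblast markers in 6 of 6 (median 0.46). The part of these markers in the results below was not tested.

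Ribosomal proteins are assembled with ribosomal RNA in the nucleolus into a small subunit, which decodes the mRNA, and a large subunit, which joins the amino acids. Their genes are among the most strongly transcribed in any cell, including neurons and glia, and the cell keeps their output matched between the subunits. Many of their mRNAs begin with a C followed by an unbroken run of C and T, the terminal oligopyrimidine or TOP motif, through which the mTOR kinase and the RNA-binding protein Larp1 control how often they are translated. An array measures the amount of an mRNA and not its translation.

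Promoter sequences are shown because such a run is the feature by which these mRNAs are recognised. Promoters from RefSeq (GRCm38.p6) were used for 63 of the 83 genes, 75 entries among 32851 in all, and promoters of the other 20 are not analysed here. The windows below run from 30 bases before to 15 bases from the annotated start, 5′ to 3′, and capitals mark a run of at least 5 C or T letters that opens with C, not preceded by another C or T unless it lies at the edge of the search, within 5 bases of that start. Rps18 lies at chr17:33955651-33955695 on the minus strand, Rps27 at chr3:90213634-90213678 (minus), Rpl35 at chr2:39005117-39005161 (minus), Rpl15 at chr14:18270972-18271016 (minus), Rps6 at chr4:86857353-86857397 (minus), Rpl22l1 at chr3:28805478-28805522 (plus) and Rps4x at chrX:102189377-102189421 (minus).
Rps18: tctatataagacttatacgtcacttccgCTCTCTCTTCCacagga
Rps27: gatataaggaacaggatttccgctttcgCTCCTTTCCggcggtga
Rpl35: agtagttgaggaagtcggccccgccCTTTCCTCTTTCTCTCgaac
Rpl15: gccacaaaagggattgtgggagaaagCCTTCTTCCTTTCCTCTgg
Rps6: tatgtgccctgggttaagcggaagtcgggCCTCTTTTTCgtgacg
Rpl22l1: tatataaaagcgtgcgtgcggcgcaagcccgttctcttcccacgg
Rps4x: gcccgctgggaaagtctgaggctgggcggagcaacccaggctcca

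The first 5 of these windows hold a run, of 11 bases in Rps18, 9 in Rps27, 16 in Rpl35, 17 in Rpl15 and 10 in Rps6. In Rpl22l1 and Rps4x none is marked. By this definition 20 of the 63 genes had a run in at least 1 entry, and the share was 29.3% of ribosomal protein entries against 14.8% of all entries. A run farther from the annotated start, as in Rps25 and Rps15a, was not counted, so a gene without a marked run may still carry the motif. Of 2 definitions tried, this was the first; a wider one, which also accepts a C inside a longer run and so takes in Rpl22l1, was tried after the values of the first had been seen, and gave 29 genes and 41.3% against 17.1%. The letters CTTCCGG, or CCGGAAG on the other strand, stood in the 300-base promoters of 25 genes, in 34.7% of ribosomal protein entries against 8.86% of all. TATAAA, or TTTATA, stood in 9.33% against 13.6%. A match is a description of letters and not a binding site.

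The first question was whether ribosomal protein mRNAs differed between ischemic and healthy tissue at 6 h. In neither region did any of the 83 genes reach a 2-fold change in the mean of the swapped pair together with a 1.5-fold change in the same direction on each array. By this rule of size 0 of 83 were higher and 0 lower in ischemic core, where 0.31% of all features were higher and 0% lower. In ischemic penumbra 0 of 83 were higher and 0 lower, against 0.241% and 0.00401% of all features. In bulk tissue, fewer cells of a type and less RNA per cell cannot be told apart.

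The mean log2 ratio of ischemic over healthy tissue stayed within a narrow band. In core the 83 genes ran from -0.14 to 0.17 with a median of 0.06, and all 83 lay within 0.2 of 0. Over all features the core median was -0.01, and over the 1511 other features as bright as most ribosomal protein genes (mean log2 intensity of 14 or more) it was -0.00. The interquartile range of the ribosomal protein genes was 0.07 log2 units, against 0.17 for all features and 0.13 for the other bright ones. In penumbra the genes ran from -0.25 to 0.32 with a median of 0.13, and 66 of 83 lay within 0.2 of 0. All features had a median of -0.01 there, and the other bright features 0.01. The interquartile range in penumbra was 0.13 for the ribosomal protein genes, 0.21 for all features and 0.22 for the other bright ones. The share of all features within 0.2 of 0 was not counted in either region, so the counts within 0.2 have no comparison.

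Small positive ratios prevailed. In core 67 of 83 genes had a mean ratio above 0, against 47.5% of all features. In penumbra 75 of 83 did, against 47.6%. Fewer had the same sign on both arrays of a pair. In core 19 genes were above 0 on both arrays (26.9% of all features) and 2 below 0 on both (28%), and in penumbra 34 were above 0 on both (30.3%) and 6 below (32.4%). The same 67 genes were above 0 in both regions and 8 were below 0 in both. In penumbra this direction depends on the normalization. With each array centred on its median and no loess, 50 of 83 were above 0 in penumbra and the penumbra median was 0.03, while core kept 67 and a median of 0.06. Scaling to the spike-in transcripts subtracts the same amount from every feature, 0.47 in core and 0.46 in penumbra, which is more than the ratio of any of the 83 genes. All 83 were below 0 after it by construction, with medians of -0.415 in core and -0.33 in penumbra, as were 98.1% of all features in core and 97.7% in penumbra, so it says nothing particular to these genes. Relative to other bright features, the median of the ribosomal protein genes was 0.06 higher in core and 0.12 higher in penumbra under median centring.

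**Figure D1:**
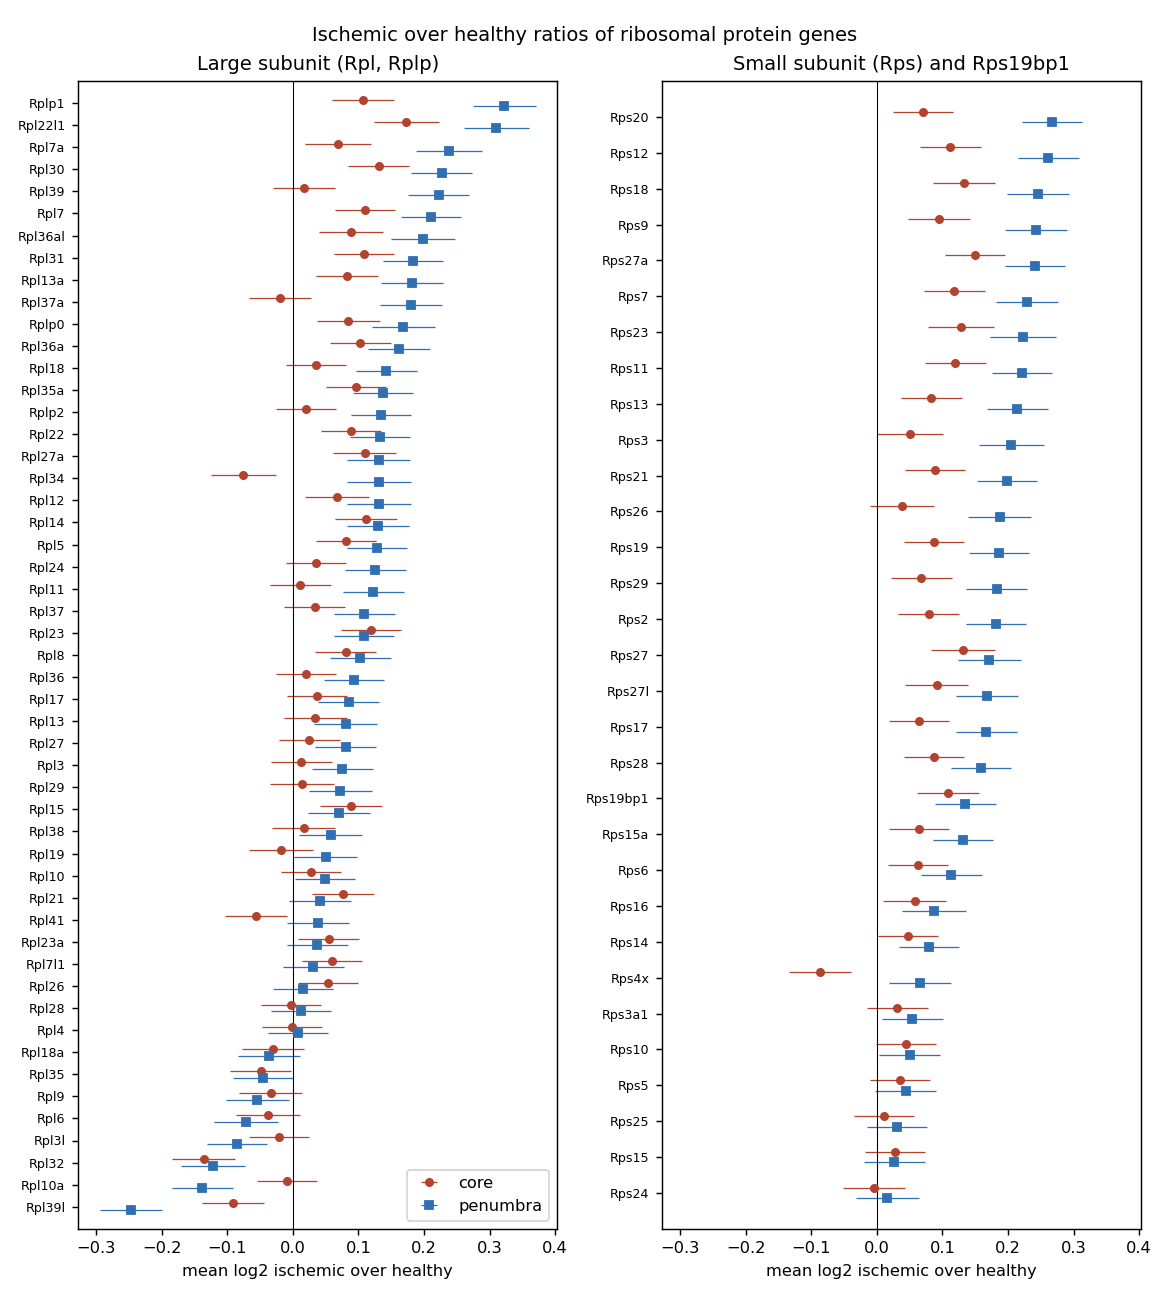
Mean log2 ratio of ischemic over healthy tissue for 82 of the 83 genes in core (circles) and penumbra (squares), large subunit on the left and small subunit with Rps19bp1 on the right, ordered by the penumbra value. Bars are the standard error of limma's fit with a dye coefficient (0.046 to 0.050). It rests on how far dye bias differs between the core and penumbra pairs, pooled across features, and not on spread between animals. Core values lie between -0.14 and 0.17 and penumbra values between -0.25 and 0.32.

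The subunits were compared next. The 31 small-subunit genes had a median log2 ratio of 0.07 in core, 29 of them above 0, and of 0.17 in penumbra, all 31 above 0. The 51 large-subunit genes had a median of 0.04 in core with 37 above 0, and of 0.10 in penumbra with 43 above 0. The range of the small-subunit genes lay inside that of the large-subunit genes in both regions, and the difference between them was not tested.

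Rpl22l1, a paralog that can take the place of Rpl22 in the large subunit, had the highest mean ratio in core. Its log2 ratios were 0.23 and 0.12 on the core arrays and 0.27 and 0.35 on the penumbra arrays, with means of 0.17 and 0.31. All 4 arrays lay above 0, and the 2 regions did not overlap. Rpl22 itself had ratios of 0.07 and 0.10 in core and 0.12 and 0.15 in penumbra. Its brightest probe was above 0 on every array, but a second probe was below 0 on every array, with means of -0.06 in core and -0.06 in penumbra, so the direction for Rpl22 rests on the probe chosen. Rps27a, which is made as a fusion of ubiquitin and a small-subunit protein, came next in core with a mean of 0.15. Its arrays gave 0.59 and -0.29 in core and 0.67 and -0.19 in penumbra, so the sign differed between the arrays of each pair.

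Rps18, a small-subunit protein often used as a reference gene in quantitative PCR, was above 0 on all 4 arrays at its brightest probe, with 0.22 and 0.04 in core (mean 0.13) and 0.28 and 0.22 in penumbra (mean 0.25). A second probe of Rps18 had 0.12 in core and 0.17 in penumbra, but it was below 0 on both arrays with ischemic RNA in Cy5, at -0.12 on core replicate 1 and -0.05 on penumbra replicate 3. Of the other reference genes, Rpl13a averaged 0.08 in core and 0.18 in penumbra, Rplp0 0.08 and 0.17, and Rpl19 -0.02 and 0.05. At these probes each of the 3 was above 0 on the arrays with ischemic RNA in Cy5 and below 0 on those with it in Cy3. Second probes gave other values: 0.10 in core and 0.21 in penumbra for Rpl19, and -0.05 and -0.03 for Rplp0. The second probe of Rpl19 had -0.06 on core replicate 1 and 0.26 on core replicate 2, the opposite order of the first. Rps6, the small-subunit protein phosphorylated downstream of mTOR, had means of 0.06 in core and 0.11 in penumbra. Rpl5 and Rpl11, which carry the 5S ribosomal RNA and bind the ubiquitin ligase Mdm2 when free, had means of 0.08 and 0.01 in core and of 0.13 and 0.12 in penumbra.

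Of the 5 lowest genes in core, 4 belonged to the large subunit and the other was Rps4x. Rpl32 was below 0 on all 4 arrays, at -0.09 and -0.18 in core and -0.15 and -0.09 in penumbra. Rpl39l, a paralog of Rpl39 known from the male germ line, had a mean of -0.09 in core and -0.25 in penumbra, the lowest there. Its probe was dim, with a mean log2 intensity of 6.43, and its size depended on the background correction: -0.49 in core and -0.56 in penumbra with Agilent's processed signals, and -0.22 and -0.59 with a normexp offset of 0. A second probe of the gene, which did not pass the filter, gave 0.02 in penumbra. Rpl39, its closest relative, had 0.02 in core and 0.22 in penumbra. Rpl3l, the muscle paralog of Rpl3, was also dim and averaged -0.02 in core and -0.08 in penumbra, against 0.01 and 0.08 for Rpl3. Rpl10a averaged -0.01 in core and -0.14 in penumbra.

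The remaining paralogs are given beside their relatives. Rpl36al averaged 0.09 in core and 0.20 in penumbra, beside 0.10 and 0.16 for Rpl36a. Rps27l, known as a target of p53, averaged 0.09 and 0.17, beside 0.13 and 0.17 for Rps27. Rpl7l1 averaged 0.06 and 0.03, beside 0.11 and 0.21 for Rpl7, but the other 2 probes of Rpl7 gave 0.04 and 0.08 in penumbra. Rps19bp1 averaged 0.11 and 0.14, with a second probe at 0.14 and -0.02, and leaving it out moved neither regional median by more than 0.01. Rpl10l and Rps4l were not among the named features and are not analysed here.

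Ribosomal protein genes disagreed between the swapped arrays more than most features did. The SD between the turned arrays of a pair had a median of 0.19 over the 83 genes in both regions, against 0.10 over all features in both. That SD was larger than the mean ratio itself for 68 of 83 genes in core (54.9% of all features) and for 49 in penumbra (47.4%). Across the 83 genes, the log2 ratios on core replicate 1 and core replicate 2 correlated negatively, with Pearson's r of -0.893, and those on the penumbra arrays with r of -0.711. These are descriptions across genes that share the same arrays and dyes, and genes are not independent replicates.

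**Figure D2:**
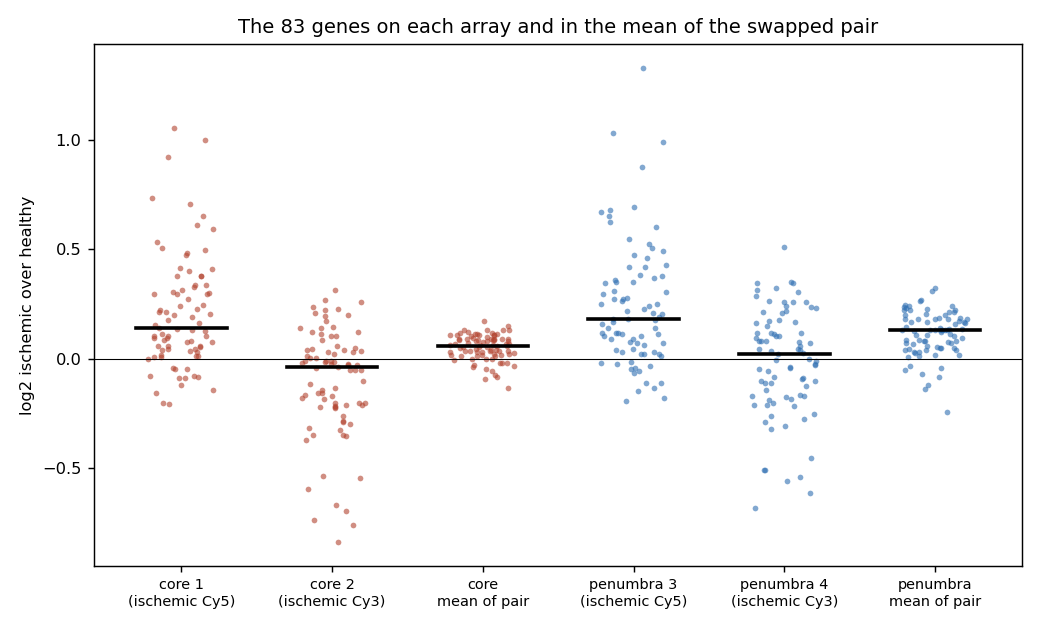
Log2 ratio of ischemic over healthy tissue for each of the 83 genes (points) on each array and in the mean of each swapped pair, core left and penumbra right, with the median as a bar. Medians are 0.14 and -0.04 on the core arrays and 0.18 and 0.02 on the penumbra arrays, and the mean of each pair is far narrower than its arrays.

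The disagreement had the form of a dye bias, measured as the mean log2 ratio of Cy5 over Cy3 across a swapped pair, in which the tissue difference cancels. Over the 83 genes it had a median of 0.09 in the core pair (from -0.22 to 0.95) and of 0.06 in the penumbra pair (from -0.27 to 1.01). Its SD across the 83 genes was 0.25 in each pair, against 0.12 in each over all features. Over the other features of log2 intensity 14 or more that SD was 0.22 in each pair, so most of the width was shared by other bright features. The bias was larger than the tissue ratio for 62 of 83 genes in core and 43 in penumbra. These are the genes whose sign differed between the arrays of a pair, so the count repeats the sign counts above. Of all features, 26.9% were above and 28% below 0 on both arrays in core, and 30.3% and 32.4% in penumbra. It exceeded 0.5 in both pairs for 7 of 83 genes, against 0.277% of all features. These were Rplp1, Rps23, Rps12, Rpl41, Rpl38, Rps29 and Rpl17.

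Rplp1, an acidic protein of the stalk that recruits elongation factors to the large subunit, had the strongest bias, at 0.95 in the core pair and 1.01 in the penumbra pair. Its log2 ratios of ischemic over healthy tissue were 1.05 and -0.84 on the core arrays and 1.33 and -0.69 on the penumbra arrays. Within each region the sign turned with the dye, and the means were 0.11 in core and 0.32 in penumbra, where no other of the 83 was higher. Its stalk partner Rplp2 had 0.41 and -0.37 in core and 0.52 and -0.25 in penumbra, and Rplp0, the base of the stalk, had 0.50 and -0.33 in core and 0.51 and -0.17 in penumbra. All 3 stalk genes thus changed sign between the arrays of each pair.

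Rps12 had a bias of 0.81 in the core and 0.77 in the penumbra pair, and Rps23, which lies at the decoding centre, 0.87 and 0.77. At the other end, Rps9 had -0.22 and -0.27, Rpl3 -0.22 and -0.19, and Rpl4 -0.20 and -0.20. For Rps9 the log2 ratios were -0.12 and 0.31 in core and -0.03 and 0.51 in penumbra, so here the arrays with ischemic RNA in Cy3 were the higher ones.

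The bias of a gene came back in the other region. Its values in the core and penumbra pairs correlated with r of 0.986 over the 83 genes and 0.808 over 24199 features measured in both, again across genes on shared arrays. The sign was the same in both pairs for 76 of 83 genes, against 76.7% of all features. Bias was larger among the brightest probes. The 29 genes with a mean log2 intensity of 16 or more had a median of 0.33 in the core pair and 0.29 in the penumbra pair, and the other 54 had 0.05 and 0.03. Those 29 genes made up 14.4% of all features that bright. The tissue ratios of the same groups were alike, with core medians of 0.06 in both and penumbra medians of 0.12 and 0.13.

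**Figure D3:**
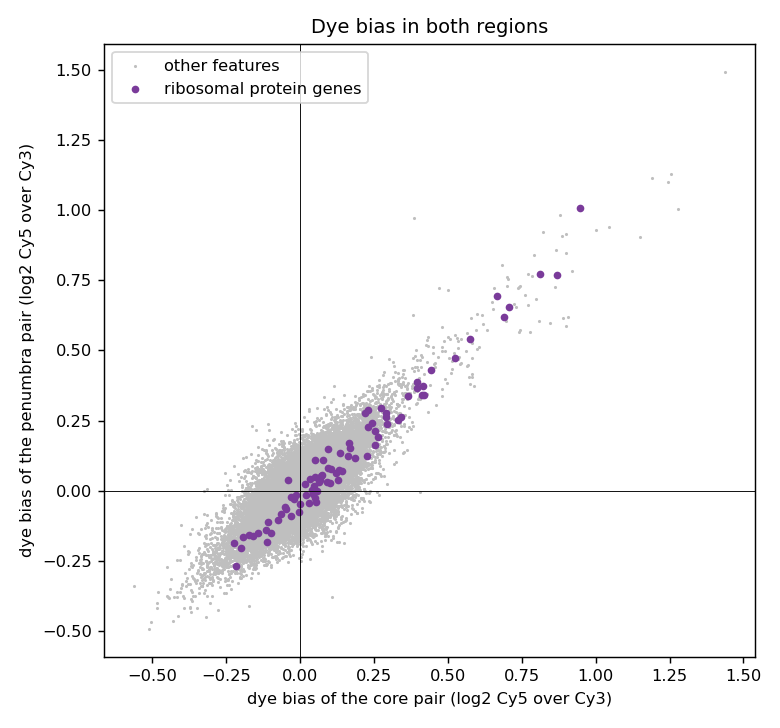
Dye bias of the core pair (horizontal) against that of the penumbra pair (vertical), in log2 Cy5 over Cy3, for the 83 genes (large points) and 24116 other features (small points). The 83 genes lie along the diagonal up to 0.95 and 1.01 for Rplp1.

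The size of the bias depended on the normalization. Before loess, the median log2 Cy5 over Cy3 of the 83 genes was 1.07, 0.96, 0.86 and 1.15 on core replicates 1 and 2 and penumbra replicates 3 and 4, against 0.44, 0.42, 0.26 and 0.58 for all features. After loess it was 0.14, 0.04, 0.18 and -0.02. With Agilent's processed signals the median bias over both pairs was -0.05, against 0.08 in the loess values.

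Different probes of the same gene differed mainly in the dye. The 30 genes with several probes had 66 probes in all. The range between probes of a gene had a median of 0.07 for the core ratio and 0.10 for the penumbra ratio, against 0.19 and 0.18 for the dye bias. It was wider for the bias than for the ratio in 24 of 30 genes in core and 21 in penumbra. The 2 probes of Rpl17 had biases of 0.57 and 0.07 in the core pair and core ratios of 0.04 and 0.07. Rps15a went the other way, with penumbra ratios of 0.13 and -0.28 from probes whose biases were -0.11 and -0.14, so its penumbra value rests on the probe chosen.

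**Figure D4:**
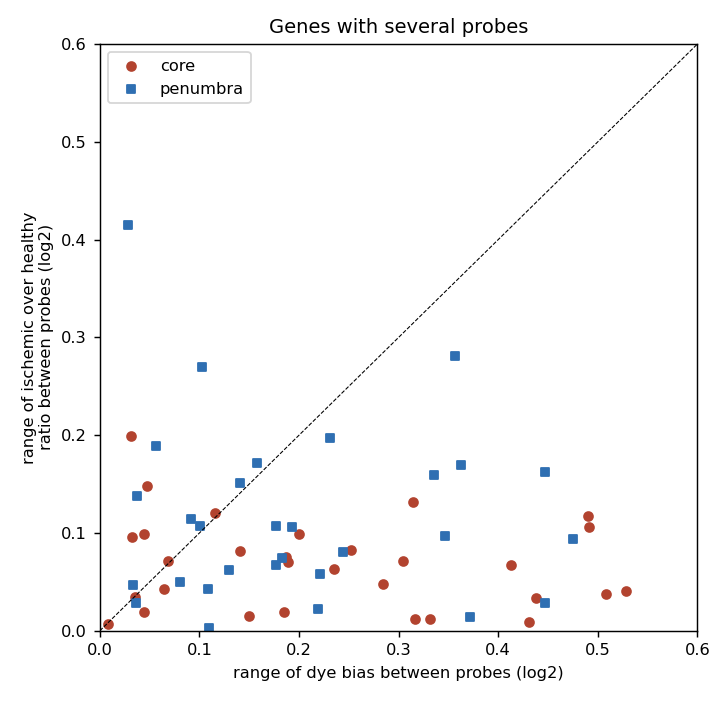
Range between the probes of a gene in dye bias (horizontal) and in the ratio of ischemic over healthy tissue (vertical), both in log2 units, for the 30 genes with several probes in core (circles) and penumbra (squares). Points below the dashed line of equality, 24 in core and 21 in penumbra, are genes whose probes differ more in dye bias; the highest point is Rps15a in penumbra, at 0.41.

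A limma fit with a dye coefficient for each gene, over all 4 arrays, takes this bias out of the error. Its p-values were adjusted by Benjamini-Hochberg over all features. The error left for a gene is how far its dye bias differs between the core and penumbra pairs, which limma pools across features. Standard errors of the 83 genes were nearly alike, from 0.0458 to 0.0505. These p-values measure neither the disagreement of ischemic over healthy ratios within a pair nor the spread between animals. At an adjusted p under 0.05, 2 of 83 genes were higher and 0 lower in ischemic core, against 15.8% and 13.2% of all features. The 2 were Rpl22l1 (1.13-fold, limma adjusted p = 0.0212) and Rps27a (1.11-fold, limma adjusted p = 0.0288). In ischemic penumbra 45 were higher and 2 lower, against 21.6% and 21.1%. Of the 45, 23 belonged to the large and 21 to the small subunit, and the other was Rps19bp1. They included Rplp1 (1.25-fold, limma adjusted p = 0.000274), Rpl22l1 (1.24-fold, limma adjusted p = 0.000464), Rps20 (1.20-fold, limma adjusted p = 0.000748) and Rps12 (1.20-fold, limma adjusted p = 0.000944). The 2 lower genes were Rpl39l (0.84-fold, limma adjusted p = 0.00152) and Rpl10a (0.91-fold, limma adjusted p = 0.0303).

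The penumbra count did not hold across normalizations. The same limma fit gave 11 higher and 6 lower genes after median centring (18.8% and 29.5% of all features), and 2 higher and 0 lower with Agilent's processed signals (10.7% and 11.6%). Both were chosen after the first count had been seen. In core the counts were 1 higher and 0 lower after median centring (13.8% and 12.6%), and 0 and 0 with processed signals (3.81% and 1.8%). Without a dye coefficient, limma called 0 of 83 genes in either region. It called 1.47% of all features higher and 0.126% lower in core, and 1.65% and 0.189% in penumbra. This is another error model and not another normalization, since it keeps the dye bias in the error. The SD between the arrays of a pair had a median of 0.19 over the 83 genes in both regions, against 0.10 over all features. A count of 0 from this fit therefore cannot decide whether the counts above hold.

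The regions were then set against each other. The difference in log2 ratio, core minus penumbra, had a median of -0.06 over the 83 genes and was below 0 for 70 of them, against 47.3% of all features. After median centring the median was 0.03 and 32 of 83 were below 0, against 41.2% of all features, so the direction did not hold. With Agilent's processed signals the median was -0.05 with 59 of 83 below 0, against 47.8% of all features. All features had medians of 0.04 and 0.01 under these settings, which were looked at after the first values. In the loess values the difference ran from -0.22 for Rplp1 to 0.15 for Rpl39l. After Rplp1 came Rpl34 and Rpl39 at -0.21 and Rpl37a and Rps20 at -0.20. For Rps20 the log2 ratios were 0.30 and -0.16 in core and 0.49 and 0.04 in penumbra, and the regions overlapped. By size (at least 2-fold between the regions, with no overlap of their arrays) 0 of 83 differed, against 0.0594% of all features. The limma fit with a dye coefficient found 0 of 83 higher and 0 lower in core, against 3.45% and 3.64%. Without the dye coefficient limma called 0 of 83 in either direction, against 0.00792% of all features higher in core and 0% lower. Because that fit keeps the dye bias in its error, its 0 cannot decide whether the regions differed.

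**Figure D5:**
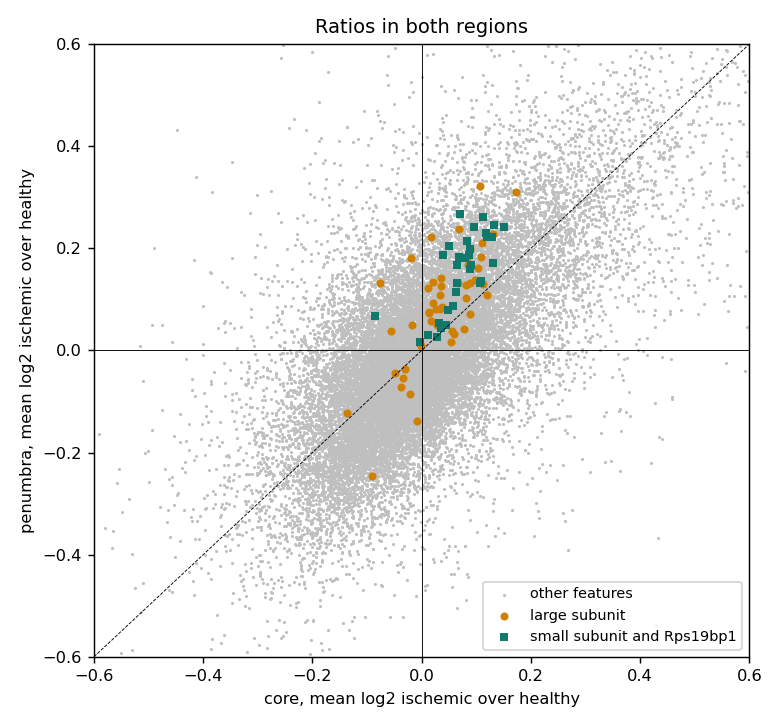
Mean log2 ratio of ischemic over healthy tissue in core (horizontal) and penumbra (vertical) for large-subunit genes (circles), small-subunit genes with Rps19bp1 (squares) and other features (small points). Axes end at 0.6, and 438 of the 24116 other features lie beyond them. In these loess values 70 of the 83 genes lie above the dashed line of equality (47.3% of all features), against 32 after median centring (41.2% of all features).

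Ratios of the 83 genes in core and penumbra correlated with r of 0.75, close to the 0.73 over all features. These are across genes measured on 1 slide. Genes with a pyrimidine run had a median ratio of 0.09 in core and 0.17 in penumbra (n = 20), and those without had 0.04 and 0.11 (n = 43). Under the wider definition the medians were 0.07 and 0.14 with a run (n = 29) and 0.03 and 0.10 without (n = 34). The ranges overlapped under both definitions, and the difference was not tested. Both definitions depend on the annotated start, so the groups without a run may include genes with the motif.

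Single-channel values allowed core and penumbra pieces to be compared within each dye. In ischemic tissue the median log2 difference, core minus penumbra, was -0.11 over the 83 genes, with 69 below 0 in the mean and 60 below 0 in both dyes, against 32.3% of all features. There 6 genes were above 0 in both dyes, against 41.5%. In healthy tissue it was -0.04, with 59 below 0 in the mean and 49 in both dyes, against 32.1%, and 17 above 0 in both dyes, against 41%. All features had medians of 0.02 in ischemic and 0.01 in healthy pieces. These medians and counts are given for the main normalization only. The gap between the ischemic and the healthy value of a gene is its core minus penumbra difference in log2 ratio. The direction of that difference did not hold after median centring. By the rule of size 0 of 83 differed in ischemic pieces, against 0.442% higher and 0.913% lower of all features, and 0 of 83 in healthy pieces, against 0.313% and 0.82%. Choroid plexus and striatal markers differed between the same pieces, and their part in these values was not tested.

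Rps4x, the X-linked small-subunit protein S4, had the lowest values in both comparisons, with -0.74 ± 0.79 in ischemic and -0.58 ± 0.71 in healthy pieces (SD between 2 dyes). The 2 dyes did not match. Ischemic tissue gave -1.30 in Cy5 and -0.18 in Cy3, and healthy tissue gave -1.09 in Cy3 and -0.08 in Cy5. Both low values come from the same 2 arrays, core replicate 1 and penumbra replicate 3. The log2 intensity was 14.6 for both tissues on core replicate 1, and between 15.6 and 15.8 on the other 3 arrays. The ratio on core replicate 1 was 0.01, since both tissues were low there together. The next lowest were more even between dyes: Rps26 had -0.37 in ischemic and -0.22 in healthy pieces, and Rpl31 -0.32 and -0.25. Rpl7l1 was the highest, with 0.21 and 0.18.

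The genes that build and use ribosomes were examined as 6 lists. By size 0 genes of any of these lists were called in either region, so the counts that follow are those of the limma fit with a dye coefficient (adjusted p under 0.05), which called 15.8% of all features higher and 13.2% lower in core, and 21.6% and 21.1% in penumbra. Like the count of ribosomal protein genes, most of them did not hold in the normalizations added after these counts had been seen. Of 38 measured ribosome biogenesis factors, 10 were higher and 1 lower in ischemic core, and 14 higher and 8 lower in ischemic penumbra, with medians of 0.09 and 0.03. With Agilent's processed signals the counts were 0 and 0 in core and 7 and 1 in penumbra, and after median centring 10 and 0 in core and 9 and 14 in penumbra. Nop58, a core protein of the snoRNPs that methylate ribosomal RNA, had the largest ratio, at 0.47 in core and 0.53 in penumbra. Dkc1, the pseudouridine synthase of the other class of snoRNP, had 0.36 and 0.38, and Fbl, the methyltransferase, 0.39 in core. These ratios exceed those of all 83 ribosomal protein genes.

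Of 20 elongation factors and other mRNAs of the TOP class, 2 were higher and 0 lower in core, and 9 higher and 1 lower in penumbra, with medians of 0.05 and 0.10; in core this is fewer than the 15.8% and 13.2% of all features, and in penumbra the shares of all features were 21.6% and 21.1%. Processed signals gave 0 and 0 in core and 3 and 0 in penumbra, and median centring 2 and 0 in core and 4 and 2 in penumbra. Rack1, a scaffold on the small subunit, had 0.13 in core and 0.30 in penumbra, and Npm1, a nucleolar chaperone, 0.17 and 0.26. Of 36 initiation factors, 4 were higher and 0 lower in core, and 8 higher and 1 lower in penumbra, with medians of 0.03 and 0.03. The shares called higher are near or below those of all features (15.8% in core and 21.6% in penumbra), processed signals gave 0 calls of either direction, and in penumbra median centring gave 0 higher and 11 lower. Eif2s2, the beta subunit of eIF2, had 0.17 and 0.20, and Eif2b1 had -0.20 in penumbra.

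Of 19 genes of the mTOR pathway and of regulators of ribosomal protein mRNAs, 5 were higher and 2 lower in core, and 3 higher and 3 lower in penumbra, with medians of -0.01 and -0.03, beside 15.8% and 13.2% of all features in core and 21.6% and 21.1% in penumbra. Processed signals gave 2 higher and 1 lower in each region, and median centring 5 and 2 in core and 2 and 7 in penumbra. Rheb, the GTPase that activates mTOR, had 0.44 in core and 0.48 in penumbra. Castor1, an arginine sensor that restrains mTOR, had -0.41 and -0.32. Ddit4, a stress-induced inhibitor of mTOR, had 0.27 in penumbra. Myc, a transcription factor that drives ribosome synthesis, had 0.51 in core. Of 76 mitochondrial ribosomal proteins, which form a separate ribosome, 4 were higher and 6 lower in core and 14 higher and 10 lower in penumbra, with medians of 0.00 and 0.01, all below the shares of all features just given. In penumbra the counts became 1 higher and 32 lower after median centring, and 1 and 4 with processed signals. Of 5 genes around p53, 2 were higher and 0 lower in core and 1 higher and 1 lower in penumbra, beside the same shares of all features, and processed signals gave 0 calls in either region. Cdkn1a, the p53 target that halts the cell cycle, had 0.37 in core and 0.14 in penumbra, and Mdm2 had 0.22 and 0.10. Trp53 itself had -0.06 in core and -0.13 in penumbra, where it was the gene called lower.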

How the data were processed

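The 4 scanner files hold spot intensity in Cy5 and Cy3 and flags for background and outlier spots, as deposited by the authors. Per the submitters' processing notes the software was Agilent Feature Extraction 11.0.1.1. Log10 ratios in the deposited series table matched the scanner software's own processed Cy5 over Cy3 values within 5e-06, and the column medians were -0.0215, 0.00516, -0.0199 and -0.0115. Scale and direction are thus known, and the centring is Agilent's. RNA was extracted with a column kit and labelled with a 2-colour kit, per the labels' protocols.

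Median signals had their background corrected by normexp with an offset of 50, and loess was fitted per array with control and outlier spots given weight 0, using limma 3.58.1 under R 4.3.3. Deposited intensities were thereby turned into log2 ratios of ischemic over healthy tissue on every array. Single-channel values were scaled with Aquantile. Of 41174 probes, 23374 were named through RefSeq accessions (GRCm38.p6). Probes had to be well above background in at least 1 tissue on both of a region's arrays, which left 24533 features in core and 24925 in penumbra. Ribosomal protein genes have many near-identical pseudogene copies, whose share of a probe's signal cannot be told apart.

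Since separate extracts for the arrays of a pair are not stated, calls rest on size, without a p-value. limma over arrays was an alternative. On simulated data its fit without a dye coefficient recovered none of the known changes. The simulated dye bias was about as wide as that of the 83 genes (SD of 0.25 in each pair). It was wider than that of all features here (SD of 0.12 in each pair), where the same fit did call features. Since limma pools its error across features, the simulation does not give the power of that fit for these genes. A count of 0 from that fit therefore does not show that these genes were unchanged. Named genes were the 5 highest and 5 lowest per region and in the difference, the 4 highest and 4 lowest in each comparison of pieces, the 5 strongest dye biases each way, the stalk, paralogs and common reference genes, and up to 3 genes per list; of these 47 genes the most informative are described. The values of 1 gene are not reported here singly, though it stays in all counts and medians. Members, lists and tests were chosen with earlier results of these data known. Python 3.11.15, pandas 2.3.3, numpy 2.4.6 and matplotlib 3.10.9 were used for tables and plots.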

Additional observations from a re-analysis of the deposited data

How the results depend on the processing

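Of 75 summary values recomputed under other settings, 60 stayed and 15 moved, and of 750 values of named genes 30 moved by more than the SD between arrays; the cause was not tested except where stated. The median dye bias of 0.08 became -0.0478 with Agilent's processed signals and 0.57 with median centring, which removes no intensity trend. Leaving out 1 array leaves the dye bias in place by construction. The median ratio then ran from -0.04 (without core replicate 1) to 0.14 (without core replicate 2) in core, and from 0.02 to 0.18 in penumbra. Calls by size ran from 0 to 1 in core (Rplp1, without core replicate 2), from 0 to 2 in penumbra (Rplp1 and Rps12, without penumbra replicate 4) and from 0 to 1 for the difference (Rplp1, without core replicate 1 or without penumbra replicate 4). limma with a dye coefficient called 2 genes in core and 47 in penumbra; after median centring it called 1 and 17, and with processed signals 0 and 2, both added after seeing the data. Scaling to spike-ins gave medians of -0.415 in core and -0.33 in penumbra. With 1 dye alone, 1 gene was called in ischemic pieces (Cy5) and 1 in healthy pieces (Cy3), Rps4x in both. The wider definition of pyrimidine runs, also added later, is given with the promoters. Using all probes of a gene, no filter on dim probes, a normexp offset of 0 or no Rps19bp1 left calls at 0. No paired analysis was possible because core and penumbra arrays share no replicate number. There is 1 swapped pair per region on 1 slide, so spread between animals is not measured, and changes much below 2-fold rest on the normalization.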
